A study of Mus musculus with 15 samples.

Results

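Transcripts of 10 genes of iron handling were followed in mouse liver: the hepcidin genes Hamp and Hamp2, the transferrin receptors Tfrc and Tfr2, transferrin itself (Trf), the iron exporter ferroportin (Slc40a1), Hfe, the ferritin heavy chain (Fth1), the ligand Bmp6 and its target Id1. They were taken by gene symbol from the 24499 genes of the deposited count tables, and all 10 were found and passed the filter on low counts. The 15 libraries were made from liver tissue of C57BL/6 mice, all male adults, in a model of alcoholic injury on top of chronic liver damage. Carbon tetrachloride (CCl4), a solvent that hepatocytes turn into a toxic radical, was injected into the abdominal cavity at 0.2 ml/kg, 2 times a week for 6 weeks. Ethanol then ran through a gastric tube for 3 weeks at up to 25 g/kg per day, with CCl4 continued at 0.5 of the dose in the CCl4 arms. The arm without CCl4 is named OO in the labels, which do not spell the name out.

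At day 0, before ethanol, there were 2 OO libraries (numbers 1 and 2) and 2 CCl4 libraries (3 and 4). At day 20 there were 1 OO library on chow (12), 3 OO libraries with ethanol (13, 14 and 15), 2 CCl4 libraries on chow (16 and 17) and 3 CCl4 libraries with ethanol (18, 19 and 20). At day 23, in a separate substudy, there were 1 OO library on chow (5) and 1 OO library with ethanol (6). The labels of the ethanol arms carry HFD and those of their controls chow, so ethanol and diet cannot be told apart in what follows. The labels do not say that the libraries come from separate animals, so p-values measure the spread between libraries, which may in part be technical. The OO chow libraries 12 and 5 were pooled across their days to serve as the OO control. The label of library 12 names OO again beside chow and that of library 5 does not, so their treatment may also differ.

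Hepcidin is a small peptide hormone that hepatocytes secrete. It binds ferroportin, the only known cellular iron exporter, and causes its breakdown, so that less iron enters the blood from the gut and from macrophages. Hepatocytes raise hepcidin transcription when iron is plentiful, through BMP ligands from sinusoidal endothelium acting on SMAD proteins, and in inflammation, through IL-6 and STAT3; low hepcidin in alcoholic liver disease is a known route to hepatic iron loading. A separate system, the iron regulatory proteins, acts on messenger RNA: when iron is scarce they bind hairpins called iron-responsive elements, which stabilises Tfrc transcripts and blocks translation of ferritin.

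Between 10347844 and 28843258 reads were assigned to genes per library. Values below are CPM, reads of a gene scaled to a common library size with TMM factors, log2 changes carry their standard error, and genes with an adjusted p under 0.05 in edgeR's quasi-likelihood test over 14778 genes are said to rise or fall. The summed level of 10 hepatocyte markers lay between 85952 and 123740 CPM. Summed transcripts of 9 erythroid markers were between 2.41 and 9.51 CPM, with the globin gene Hbb-bt listed at 0 in all 15 libraries. Reads that fit several places were left uncounted, so the near-identical globin genes may be missed. Libraries 12 and 6 held 153 and 159 CPM of 12 exocrine pancreas markers against 5.52 to 14.0 CPM in the other 13, and values without library 12 are given beside the members' results that use the OO chow control. In bulk liver, fewer cells of a type and less RNA per cell cannot be told apart.

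Per kilobase of transcript, the median level over the 15 libraries was highest for Trf, at 9191 CPM per kb. Hamp followed at 502, Fth1 at 354, Tfr2 at 170 and Slc40a1 at 76.1 CPM per kb. Hfe at 15.8 and Tfrc at 13.1 CPM per kb were neighbours whose ranges over the libraries overlapped. The lowest were Hamp2 at 4.02, Id1 at 3.81 and Bmp6 at 1.02 CPM per kb. The genes also differed in how far they moved: the highest library was 88.7 times the lowest for Hamp and 42.4 times for Hamp2, but 1.48 times for Hfe and 1.99 times for Slc40a1.

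Hamp encodes hepcidin (ENSMUSG00000050440, chr7:30942368-30944032 on the minus strand of mm10), and Hamp2 is its close copy in the mouse (ENSMUSG00000056978, chr7:30922372-30924681, minus strand). The 150 bases before each RefSeq start (build GRCm38.p6, minus strand, chr7:30944030-30944179 for Hamp and chr7:30924182-30924331 for Hamp2) are shown because the proximal BMP-responsive and STAT3 sites of the hepcidin promoter lie there and the copies differ in one of them. Capitals mark the BMP response element core GGCGCC, or its counterpart in Hamp2, followed by the STAT site TTCNNNGAA.
Hamp: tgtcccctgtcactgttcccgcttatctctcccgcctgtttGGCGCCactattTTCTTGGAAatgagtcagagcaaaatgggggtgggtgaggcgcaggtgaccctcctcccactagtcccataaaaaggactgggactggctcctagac
Hamp2: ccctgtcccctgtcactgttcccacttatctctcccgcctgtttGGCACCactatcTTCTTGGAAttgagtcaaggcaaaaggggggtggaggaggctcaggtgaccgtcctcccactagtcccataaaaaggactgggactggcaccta
Counted from 1 at the first capital, the BMP core of Hamp2 carries G4A relative to Hamp, and the STAT sites have the same letters. On both strands, GGCGCC occurred in 11.9% of 32851 RefSeq promoter windows from 250 bases before to 50 after the start, and TTCNNNGAA in 8.3%. Windows were at hand for 7 of the 10 genes, and among them only Hamp and Tfrc held the BMP core and only Hamp and Hamp2 the STAT site. A match is a description of letters and not a measured binding site.

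Hamp was lowest in the livers given both CCl4 and ethanol. The 3 CCl4 ethanol libraries held 51.6, 69.4 and 4.21 CPM, while the other 12 libraries ran from 106 to 373 CPM, so the groups did not overlap. Only 2.7% of the 14778 genes tested had all 3 of these libraries below all 12 others. The OO day 0 libraries held 206 and 293 CPM and the CCl4 day 0 libraries 300.4 and 278 CPM, so the groups overlapped before ethanol. The OO chow libraries held 373 (library 12) and 262 CPM (library 5), and the CCl4 chow libraries 299 and 166 CPM. The OO ethanol libraries held 222, 106 and 117 CPM at day 20 and 141 CPM at day 23, all 4 below both OO chow libraries. At day 20, 32.1% of all genes had no overlap between OO ethanol and OO chow.

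**Figure D1:**
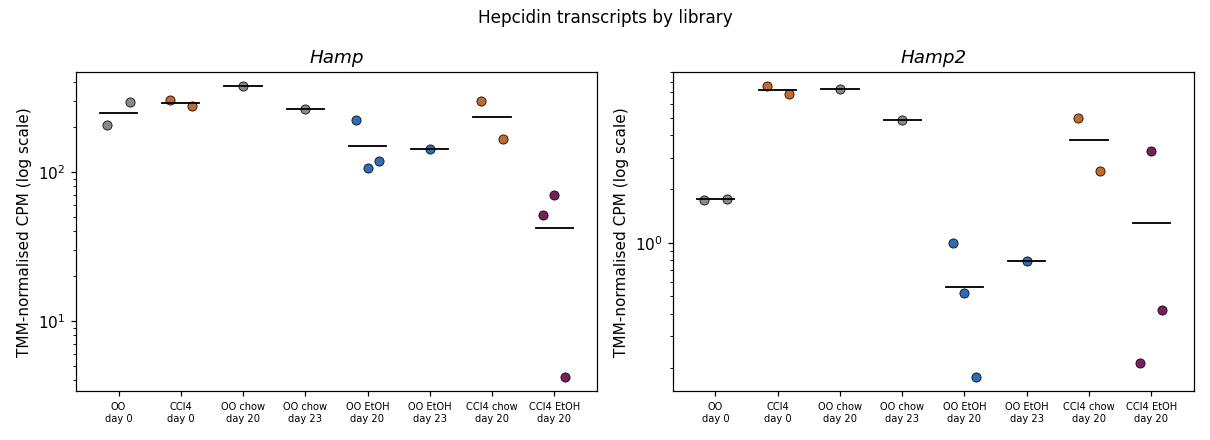
Hamp and Hamp2 in each of the 15 libraries, as TMM-normalised CPM on a log axis, by group; points are libraries and bars group means. The 3 CCl4 ethanol libraries are the lowest for Hamp, while for Hamp2 the 4 OO ethanol libraries and 2 of the 3 CCl4 ethanol libraries lie at or below 0.991 CPM.

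Against OO chow, Hamp fell by 2.92 ± 0.70 on the log2 scale in CCl4 ethanol livers (means 318 and 41.8 CPM, edgeR adjusted p = 0.0202), a comparison chosen after the data were seen. The call was lost when library 12 (edgeR adjusted p = 0.0917), library 5 (0.0703) or library 18 (0.0581) was left out, with the log2 change between -3.15 and -2.58. It was also lost in a fit of the compared libraries only, at -2.91 (edgeR adjusted p = 0.0669), where Tfrc was called instead (0.0205). With library 5 alone as OO chow the Hamp change was -2.64, and without libraries 6 and 12 it was -2.60. Against CCl4 chow the log2 change of Hamp with ethanol was -2.47 ± 0.70 (edgeR adjusted p = 0.139). Against OO ethanol its log2 change with CCl4 was -1.82 ± 0.64 (edgeR adjusted p = 0.0582). Library 20 held only 50 Hamp reads. Without it the changes were smaller but passed the test, at -1.94 for ethanol in CCl4 animals (edgeR adjusted p = 0.0481) and -1.29 for CCl4 under ethanol (0.028). Without library 19 the change with CCl4 under ethanol also passed, at -2.38 (edgeR adjusted p = 0.037). In OO animals the change with ethanol was -1.10 ± 0.68 (edgeR adjusted p = 0.393), or -0.80 without library 12, and the interaction, which asks whether ethanol acted differently in CCl4 animals, was -1.37 ± 0.99 (edgeR adjusted p = 0.795, with -1.65 without library 12), so a difference between the ethanol effects was not shown.

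Hamp2 was much scarcer, at 2 to 120 reads per library, and fell with ethanol in OO animals. The OO ethanol libraries of day 20 held 0.991, 0.522 and 0.177 CPM and the day 23 ethanol library 0.792 CPM, against 7.27 and 4.88 CPM on OO chow. The OO day 0 libraries, also without ethanol, lay between these ranges, at 1.74 and 1.76 CPM. The log2 change at day 20 against OO chow was -3.44 ± 0.84 (edgeR adjusted p = 0.0381), and the groups did not overlap, as was so for 32.1% of all genes. The call was lost without library 5 (edgeR adjusted p = 0.0635) or 12 (0.219, at a log2 change of -3.11), without library 14 (0.109) or 15 (0.128), and without any 1 of the 4 day 0 libraries, where the adjusted p lay between 0.0548 (library 1) and 0.0631 (library 3), with 0.0551 for library 2 and 0.063 for library 4. The CCl4 ethanol libraries were split, with 0.211, 3.25 and 0.421 CPM in libraries 18, 19 and 20. Without library 19 the log2 change with ethanol in CCl4 animals was -3.65 (edgeR adjusted p = 0.0155), against -1.54 with it (0.485). At day 0 the CCl4 libraries held 7.51 and 6.82 CPM and the OO libraries 1.74 and 1.76 CPM, a log2 change of 2.03 ± 0.86 (edgeR adjusted p = 0.247) that passed without library 19 (0.0449), which is in neither group but enters the shared spread. The transcripts of Hamp and Hamp2 were 88.8% identical, and 60 of the 361 stretches of 50 bases in Hamp also occurred in Hamp2. Reads that fit both copies were left uncounted, and others may have been given to the wrong copy. The values of Hamp, and those of the scarcer Hamp2, are therefore uncertain.

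Levels of inflammation and of the cells that send BMP signals are given beside these changes. The summed level of 18 acute phase genes, which respond to IL-6 in liver, was 65241 to 89074 CPM in the CCl4 ethanol libraries, 50971 to 55192 CPM on CCl4 chow and 60682 to 98286 CPM in OO ethanol libraries at day 20. It was lowest in the CCl4 libraries of day 0, at 35142 and 35268 CPM, where Hamp was not low. Socs3, a STAT3 target that dampens IL-6 signalling, held 15.4, 37.6 and 31.9 CPM in the CCl4 ethanol libraries and 26.1 and 19.1 CPM on CCl4 chow. Their part in the Hamp result was not tested.

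Bmp6 (ENSMUSG00000039004, chr13:38345107-38500302, plus strand), the endothelial ligand that signals liver iron to hepatocytes, had its 2 lowest values in CCl4 ethanol livers. These libraries held 2.49, 1.72 and 2.78 CPM against 5.49 and 3.52 CPM on CCl4 chow, a log2 change of -0.95 ± 0.27 (edgeR adjusted p = 0.137) without overlap, as was so for 26.6% of all genes. At day 0 the CCl4 libraries held 6.89 and 6.43 CPM and the OO libraries 3.67 and 4.15 CPM, a log2 change of 0.77 ± 0.29 (edgeR adjusted p = 0.194). The OO chow libraries held 3.79 and 3.45 CPM and the OO ethanol libraries 2.58, 3.81 and 3.45 CPM at day 20, with overlap. Bmp6 was counted from 26 to 131 reads, and it overlaps Txndc5 and 4930579J19Rik on the opposite strand, so without known strand use its reads cannot be told apart from theirs. The summed level of 10 markers of sinusoidal endothelium was 565 to 643 CPM in CCl4 ethanol libraries and 674 to 821 CPM on CCl4 chow, and its part in the Bmp6 values was not tested. Bmp2, the other endothelial ligand for hepcidin, fell with CCl4 under ethanol by 0.58 ± 0.17 on the log2 scale (edgeR adjusted p = 0.0265), from 11.4, 11.2 and 12.4 CPM to 8.52, 7.91 and 6.90 CPM. That call was lost without library 15 (edgeR adjusted p = 0.085), 19 (0.0508) or 20 (0.0946).

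Hfe and Tfr2 sit on the hepatocyte surface and are needed for hepcidin to follow transferrin iron. Hfe (ENSMUSG00000006611, chr13:23702034-23710854, minus strand) fell with CCl4 under ethanol by 0.40 ± 0.10 on the log2 scale (edgeR adjusted p = 0.0161). The CCl4 ethanol libraries held 48.0 to 50.3 CPM, below all other 12 libraries, which held 51.4 to 70.8 CPM. Of all genes tested, 2.7% had these libraries below the other 12. The call was lost without library 15 (edgeR adjusted p = 0.0735) or 18 (0.0594). Tfr2 (ENSMUSG00000029716, chr5:137569840-137587481, plus strand) held 347, 491 and 400.3 CPM in CCl4 ethanol libraries against 659, 506 and 508 CPM in OO ethanol libraries, a log2 change of -0.43 ± 0.16 (edgeR adjusted p = 0.0624) without overlap, as was so for 36.3% of all genes. It passed without library 19, at -0.58 (edgeR adjusted p = 0.0211). On chow the CCl4 libraries held 406 and 349.9 CPM and the OO libraries 473 and 551 CPM, a log2 change of -0.44 ± 0.19 (edgeR adjusted p = 0.309), or -0.50 without library 12. Hemojuvelin (listed as Hfe2), the BMP co-receptor, and Tmprss6, the protease that cuts it, had log2 changes of -0.34 and -0.38 with CCl4 under ethanol (edgeR adjusted p = 0.102 and 0.0535).

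Id1 (ENSMUSG00000042745, chr2:152736251-152737410, plus strand), a BMP-induced inhibitor of transcription factors, was the member that rose with CCl4 alone. At day 0 the CCl4 libraries held 9.58 and 9.49 CPM and the OO libraries 1.84 and 1.36 CPM. Both CCl4 libraries were above every OO library of the series, and the log2 change was 2.58 ± 0.34 (edgeR adjusted p = 0.00213). Id1 was the 1 member called at day 0, where 2.48% of genes were called. The CCl4 chow libraries held 6.00 and 6.17 CPM at day 20, and the CCl4 ethanol libraries 5.15, 3.56 and 5.30 CPM against 2.58, 2.71 and 2.21 CPM in OO ethanol libraries. The rise with CCl4 under ethanol was 0.89 ± 0.26 on the log2 scale (edgeR adjusted p = 0.0254), which was lost without library 14 (0.0501), 15 (0.0885), 18 (0.0897) or 20 (0.0822). The OO chow libraries were apart, at 2.77 (library 12) and 5.46 CPM (library 5), and comparisons with them moved accordingly. With CCl4 under chow the log2 change was 0.56 ± 0.30 (edgeR adjusted p = 0.435), or 0.20 without library 12 and 1.14 without library 5. Reads of Id1 numbered 17 to 153.

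Of 7 other BMP-SMAD targets, 2 passed with CCl4 under ethanol, Atoh8 and Smad9, and both fell, where 11.3% of all genes fell. The transcription factor Atoh8, which acts on the hepcidin promoter, held 6.41, 6.93 and 5.39 CPM in the CCl4 ethanol libraries and fell by 0.86 ± 0.24 on the log2 scale against the 15.7, 8.51 and 10.4 CPM of OO ethanol (edgeR adjusted p = 0.0221). That call was lost without library 13 (edgeR adjusted p = 0.072), 18 (0.0634) or 20 (0.0796). Against OO chow it fell by 0.96 ± 0.27 (edgeR adjusted p = 0.0371), a call that did not hold without library 5 (0.195) or 12 (0.119), nor without 18 (0.0958), 20 (0.106), 17 (0.0532), 3 (0.0544) or 4 (0.0542). Id2, Id3 and Smad6 passed in none of the 9 comparisons by edgeR.

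**Figure D2:**
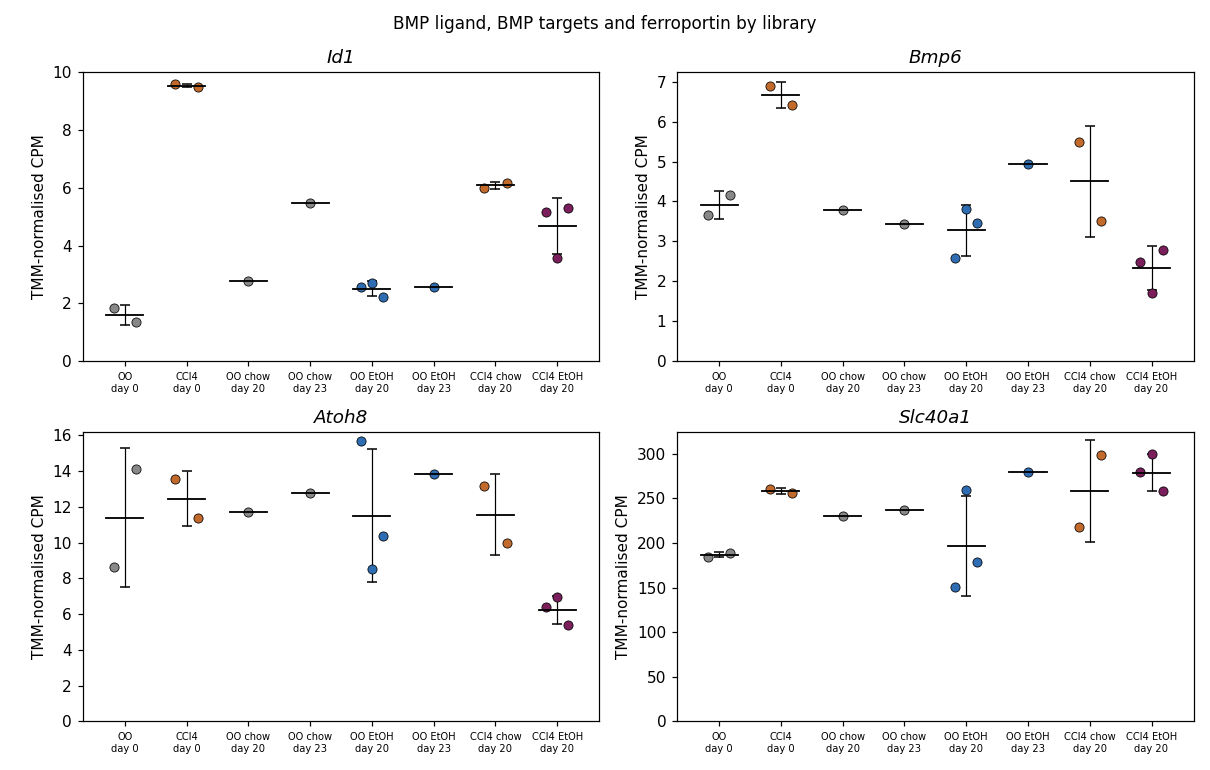
Id1, Bmp6, Atoh8 and Slc40a1 in each library, as TMM-normalised CPM on linear axes from 0; points are libraries, horizontal bars group means and error bars SD where a group holds more than 1 library. Id1 is highest in the CCl4 libraries of day 0 and Atoh8 lowest in the CCl4 ethanol libraries.

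Trf (ENSMUSG00000032554, chr9:103204001-103230444, minus strand) encodes transferrin, the plasma iron carrier that hepatocytes secrete, and was highest in CCl4 ethanol livers. These libraries held 35290, 37477 and 43667 CPM, which in library 20 corresponds to 4.37% of the scaled reads. The other 12 held 18996 to 30293 CPM, and 2.21% of genes had all 3 CCl4 ethanol libraries above all 12 others. Against OO ethanol, at 20773, 19789 and 19088 CPM, Trf rose by 0.96 ± 0.16 on the log2 scale (edgeR adjusted p = 0.00134), and the call held when any single library was left out. On CCl4 chow it held 30293 and 27160 CPM, so the change with ethanol in CCl4 animals was 0.43 ± 0.18 (edgeR adjusted p = 0.367). In OO animals the change with ethanol was -0.36 ± 0.18 (edgeR adjusted p = 0.273), from 29662 (library 12) and 21304 CPM (library 5) on chow. Without library 12 that change was -0.077. The interaction was 0.79 ± 0.25 (edgeR adjusted p = 0.382), or 0.52 without library 12. Against OO chow, the CCl4 ethanol livers differed by 0.61 ± 0.18 (edgeR adjusted p = 0.0525), which passed without library 12 (0.0303) or 13 (0.0445).

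Tfrc (ENSMUSG00000022797, chr16:32608920-32632794, plus strand) encodes the receptor through which most cells take up transferrin, and its transcript is held by the iron regulatory proteins. It was higher on ethanol than on chow, with a wide spread. The OO ethanol libraries held 43.6, 208 and 140.3 CPM at day 20 and 101 CPM at day 23, against 36.1 and 38.5 CPM on OO chow, and the CCl4 ethanol libraries 67.8, 136 and 104 CPM against 41.0 and 58.8 CPM on CCl4 chow. Neither pair of groups overlapped, as was so for 32.1% of all genes in OO and 26.6% in CCl4 animals. The log2 change was 1.81 ± 0.51 in OO animals (edgeR adjusted p = 0.0602) and 1.03 ± 0.49 in CCl4 animals (edgeR adjusted p = 0.447). Without library 12 the change in OO animals was 1.78 (edgeR adjusted p = 0.307). Without library 13 the change in OO animals was 2.22 and passed (edgeR adjusted p = 0.00303), and DESeq2 called it with all libraries (adjusted p = 0.0179). Against OO chow the CCl4 ethanol livers differed by 1.46 ± 0.50 (edgeR adjusted p = 0.0841), which passed without library 13 (0.00898) and was 1.46 without library 12 (0.247). The OO day 0 libraries, also without ethanol, held 64.2 and 105 CPM. Summed markers of proliferating cells, which use much Tfrc, were 47.0 to 61.7 CPM in OO ethanol libraries of day 20 and 67.8 to 74.7 CPM on OO chow, where Tfrc was lower. They were 172 to 521 CPM in CCl4 ethanol and 265 to 325 CPM in CCl4 chow libraries, and their part in the Tfrc values was not tested.

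**Figure D3:**
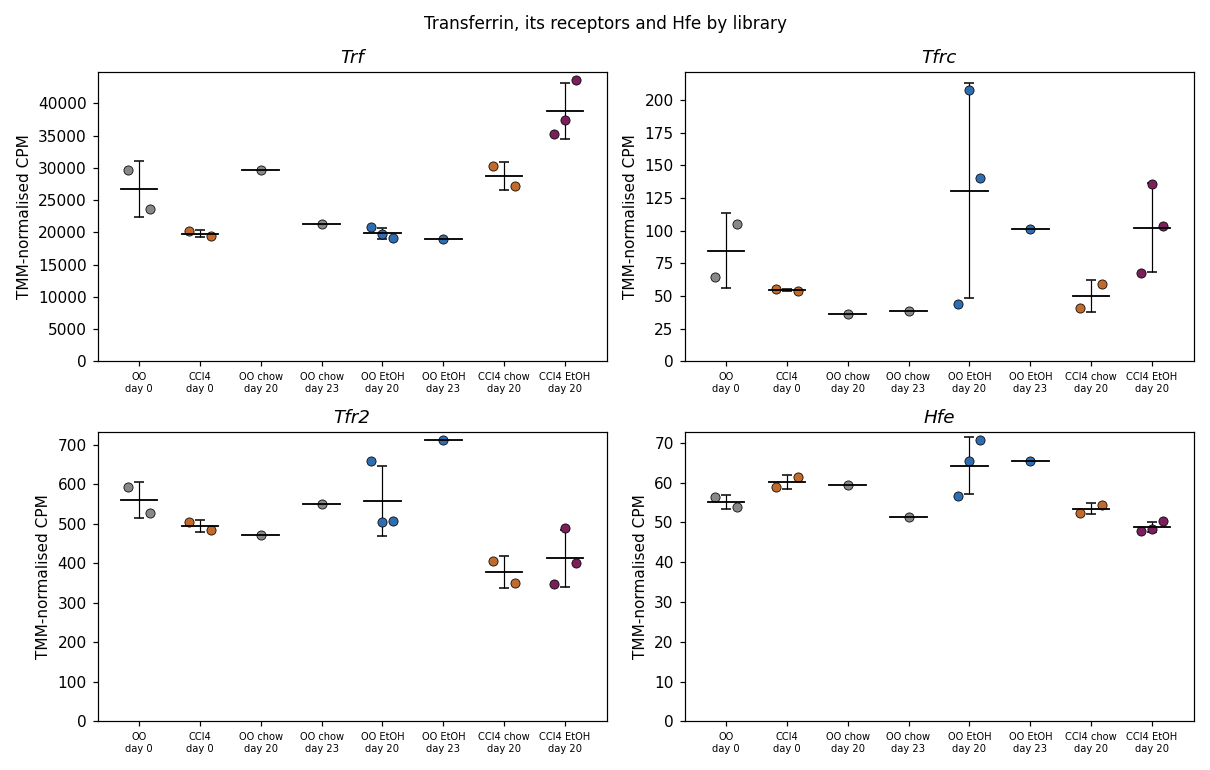
Trf, Tfrc, Tfr2 and Hfe in each library, as TMM-normalised CPM on linear axes from 0; points are libraries, horizontal bars group means and error bars SD where a group holds more than 1 library. Trf is highest and Hfe lowest in the 3 CCl4 ethanol libraries, and Tfrc spreads from 43.6 to 208 CPM in the OO ethanol libraries of day 20.

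Slc40a1 (ENSMUSG00000025993, chr1:45908068-45926523, minus strand) encodes ferroportin, the target of hepcidin, and had a narrow range. The CCl4 ethanol libraries held 279, 300 and 258 CPM and the OO ethanol libraries 151, 259 and 179 CPM, which overlapped by 1 library, with a log2 change of 0.51 ± 0.18 (edgeR adjusted p = 0.0596). It passed without library 14, at 0.76 (edgeR adjusted p = 0.00603), or without library 17, at 0.54 (0.0405). At day 0 the CCl4 libraries held 260.5 and 256 CPM and the OO libraries 185 and 189 CPM, a log2 change of 0.47 ± 0.22 (edgeR adjusted p = 0.311). Macrophages are rich in ferroportin, and the summed level of 10 Kupffer cell and macrophage markers was 1439 to 1879 CPM in CCl4 ethanol and 824 to 1032 CPM in OO ethanol libraries, but 482 to 526 CPM in CCl4 and 781 to 904 CPM in OO libraries of day 0. Their part in the Slc40a1 values was not tested. Cp and Heph, copper ferroxidases that load exported iron onto transferrin, rose with CCl4 under ethanol, where 12.7% of all genes rose. On the log2 scale Cp rose by 0.67 ± 0.16 (edgeR adjusted p = 0.0109) and Heph by 1.51 ± 0.24 (edgeR adjusted p = 0.000939). Hephl1, the other ferroxidase listed, did not pass the filter on low counts.

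Fth1 (ENSMUSG00000024661, chr19:9980598-9985098, plus strand) encodes the ferritin subunit that oxidises iron for storage, and Ftl1 the light chain that helps to form the mineral core. Their iron-responsive elements are shown with those of Tfrc and Slc40a1 because they link the storage, uptake and export genes to one sensor. Capitals mark the loop of each 27-base hairpin, as read from GENCODE M21 transcripts (mm10). For Tfrc the first of 4 sites, all in the 3′ UTR, is given (chr16:32631220-32631246, plus strand). The others lie in the 5′ UTR, for Slc40a1 at chr1:45925466-45925492 (minus), for Fth1 at chr19:9982733-9982759 (plus) and for Ftl1 at chr7:45459780-45459806 (minus).
Tfrc: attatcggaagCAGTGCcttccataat
Slc40a1: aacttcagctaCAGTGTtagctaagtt
Fth1: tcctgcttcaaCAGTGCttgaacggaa
Ftl1: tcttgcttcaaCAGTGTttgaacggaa
The pattern, a CAGTGN loop whose last base is not G on paired stems, occurred in 20 of 20218 genes (0.099%), and in 0 of the other 7 members. The elements in Fth1, Ftl1 and Slc40a1 act on translation, which was not measured here.

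Fth1 rose with ethanol in OO animals. The OO ethanol libraries held 1032, 567 and 685 CPM at day 20 and 780.4 CPM at day 23, while the 11 libraries of other groups held 244 to 383 CPM, with no overlap. How many of all genes share this split was not counted. Between OO ethanol of day 20 and OO chow, 32.1% of all genes had no overlap. The log2 change of Fth1 against OO chow was 1.16 ± 0.24 (means 762 and 341 CPM, edgeR adjusted p = 0.0209), and the call was lost without library 5 (0.1) or library 12 (0.121). With Hamp2 it made 2 of 10 members called with ethanol in OO animals, where 5.25% of genes were called. In CCl4 livers with ethanol Fth1 held 329, 326 and 331 CPM, and on CCl4 chow 383 and 244 CPM. Under ethanol it was therefore lower with CCl4 than without, by a fall of 1.21 ± 0.21 on the log2 scale (edgeR adjusted p = 0.00166) that held when any single library was left out. The interaction was -1.09 ± 0.33 (edgeR adjusted p = 0.358, with -1.21 without library 12), so a difference between the ethanol effects in OO and CCl4 animals was not shown for Fth1.

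Ftl1 and the haem-handling genes Blvrb and Slc48a1 were also highest in OO ethanol livers. Ftl1 held 4627, 4833 and 4980 CPM in OO ethanol libraries of day 20 against 2088 and 2192 CPM on OO chow and 2505, 3221 and 2056 CPM in CCl4 ethanol libraries. It rose with ethanol in OO animals by 1.17 ± 0.18 on the log2 scale (edgeR adjusted p = 0.00492, or 0.0687 without library 12) and fell with CCl4 under ethanol by 0.89 ± 0.15 (edgeR adjusted p = 0.00158). Blvrb, a biliverdin reductase, held 181, 175 and 169 CPM in OO ethanol libraries of day 20 and 161 CPM at day 23, against 38.8 to 71.4 CPM in the other 11. For Slc48a1, which moves haem out of lysosomes, these libraries held 87.7, 89.7 and 80.9 CPM, and 64.6 CPM at day 23, against 28.9 to 50.1 CPM elsewhere. How many of all genes share this split of the libraries was not counted. The interaction passed for both, at -1.80 ± 0.24 for Blvrb and -1.23 ± 0.16 for Slc48a1 (edgeR adjusted p = 0.0109 for each). It was lost without library 5 (edgeR adjusted p = 0.0708 for each) or 17 (0.0716 for Blvrb and 0.0637 for Slc48a1), for Blvrb also without library 12 (0.0564) and for Slc48a1 without library 16 (0.0502). Hmox1, the oxygenase that opens haem, passed in none of the 9 comparisons by edgeR. Ferritin genes have many processed copies in the genome, and reads that fit several places were left uncounted, so ferritin levels are uncertain.

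**Figure D4:**
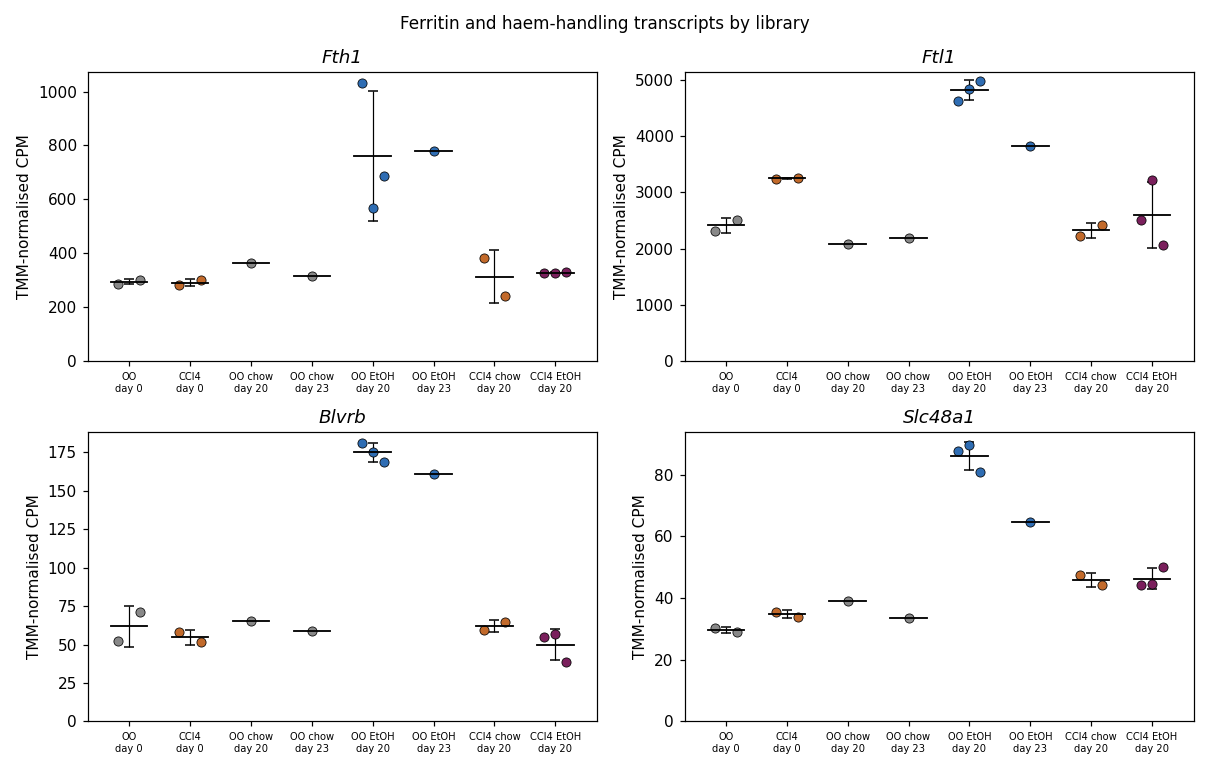
Fth1, Ftl1, Blvrb and Slc48a1 in each library, as TMM-normalised CPM on linear axes from 0; points are libraries, horizontal bars group means and error bars SD where a group holds more than 1 library. The 4 OO ethanol libraries lie above the other 11 for all 4 genes, and the CCl4 ethanol libraries lie near the chow groups. How many of all genes share this split was not counted.

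Counted over the 10 genes, CCl4 against OO under ethanol gave 4 calls, with Trf and Id1 up and Fth1 and Hfe down, but 24.0% of all genes were called there, 12.7% higher and 11.3% lower. The members with an unadjusted p under 0.05 there numbered 7, and DESeq2 called 6. The median log2 change of the 10 genes was -0.38 against -0.04 over all genes. In the comparison of CCl4 ethanol with OO chow 1 member was called, Hamp, with 10.7% of genes called, 5 members at an unadjusted p under 0.05 and 3 by DESeq2. Ethanol in OO animals gave 2 by edgeR (5.25% of genes), 4 at an unadjusted p under 0.05 and 3 by DESeq2. CCl4 at day 0 gave 1 by edgeR (2.48% of genes), 4 at an unadjusted p under 0.05 and 1 by DESeq2. For ethanol in CCl4 animals 0 members were called by edgeR (1.25% of genes), with 3 at an unadjusted p under 0.05 and 0 by DESeq2. For CCl4 under chow 0 were called (1.48% of genes), with 1 at an unadjusted p under 0.05 and 0 by DESeq2. The interaction gave 0 members by edgeR (0.115% of genes), 2 at an unadjusted p under 0.05 and 0 by DESeq2. From day 0 to day 20 on chow, CCl4 animals gave 0 by edgeR (10.9% of genes), 2 at an unadjusted p under 0.05 and 1 by DESeq2, Trf. From day 0 to OO chow the counts were 0 by edgeR (0.108% of genes), 2 at an unadjusted p under 0.05 and 1 by DESeq2, Id1.

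**Figure D5:**
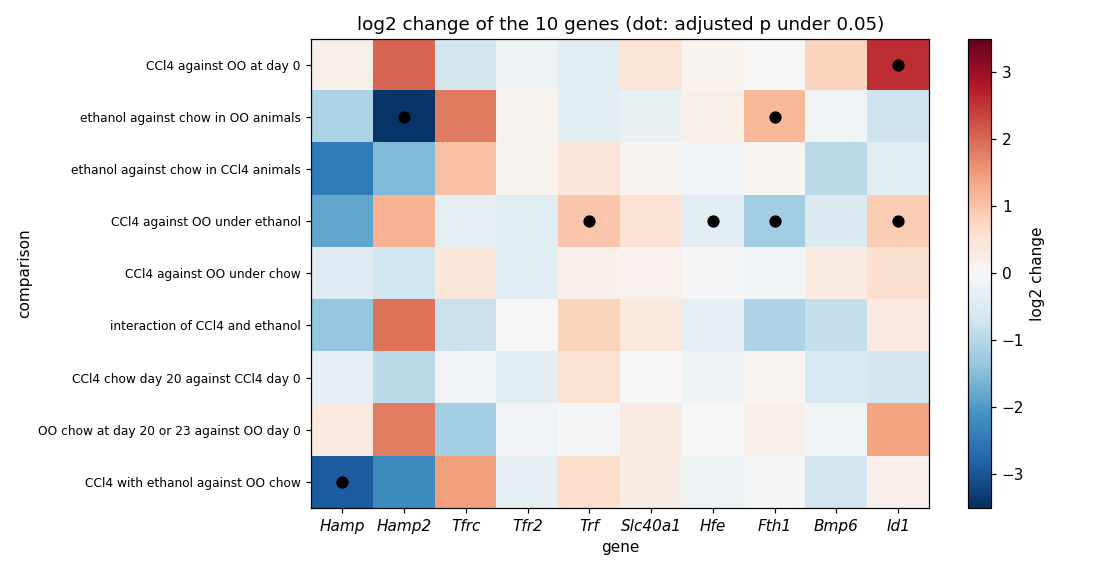
Log2 change of the 10 genes in the 9 comparisons, as colour, with red higher and blue lower in the first-named group; dots mark an edgeR adjusted p under 0.05. The dots number 8, of which 4 lie in the comparison of CCl4 with OO under ethanol.

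Of 86 further iron genes in the tables, 80 were tested. With CCl4 under ethanol 6 rose and 17 fell, 28.8% of the 80 against 24.0% of all genes. Of the 17, 9 were among the 16 genes of mitochondrial iron use and haem synthesis, 56.2% of the 16, where 11.3% of all genes fell. Abcb10, a mitochondrial transporter needed for haem synthesis, fell there by 0.91 ± 0.12 on the log2 scale, from 39.5, 47.3 and 53.0 to 24.3, 24.7 and 25.8 CPM (edgeR adjusted p = 0.000309). The median of those 16 genes was -0.46 against -0.04 over all genes. In the same comparison 7 of 10 stellate cell and 7 of 10 Kupffer cell and macrophage markers rose, and 1 of each fell. Of 10 proliferating cell markers 8 rose and 0 fell, and of 10 hepatocyte markers 0 were called. The part of cell content in these falls was not tested. Alas2, the erythroid form of the first haem synthesis enzyme, fell with ethanol in CCl4 animals by 1.30 ± 0.18 (edgeR adjusted p = 0.00347), with 49.4, 35.5 and 38.0 CPM against 100.4 and 102 CPM on chow. Alas2 was not among the 9 erythroid markers, whose sum was at most 9.51 CPM. Bdh2, proposed to make a mammalian siderophore, fell there by 1.31 ± 0.21 (edgeR adjusted p = 0.00903), a call lost without library 17 (0.109). With ethanol in OO animals 4 rose and 3 fell, 8.75% of the 80 against 5.25% of all genes, among them lactoferrin (Ltf), a secreted iron binder, which fell by 3.74 ± 0.87 (edgeR adjusted p = 0.0314). For Ltf the log2 change without library 12 was -1.26 (edgeR adjusted p = 0.566), and the call was also lost without library 3 (0.0511), 4 (0.051), 14 (0.112) or 15 (0.0957). At day 0, 1 rose and 9 fell with CCl4, 12.5% of the 80 against 2.48% of all genes, led by the plasma haemoglobin binder Hp, its macrophage receptor Cd163, the siderophore binder Lcn2 and Fgl1, a liver hormone that blocks BMP signalling. The Fgl1 call was lost without library 3 (edgeR adjusted p = 0.0503) or 4 (0.0544). Lcn2 fell by 6.76 ± 0.89 (edgeR adjusted p = 0.00219, or 0.0556 without library 4), from 1174 and 277 to 8.58 and 4.55 CPM. In the same comparison 13 of 18 acute phase genes fell, with a median log2 change of -2.39. Hp, Hpx, Lcn2 and Cp stand in both the iron and the acute phase lists. The counts of the 2 kinds of list, here and below, are therefore partly of the same genes. In CCl4 animals on chow 11 rose and 4 fell from day 0 to day 20, 18.8% of the 80 against 10.9% of all genes, and Lcn2 rose by 6.03 ± 0.87 (edgeR adjusted p = 0.00228, or 0.0539 without library 4). All 10 neutrophil markers, all 10 Kupffer cell and macrophage markers and 10 of the 18 acute phase genes rose there too, with median log2 changes of 4.44, 1.45 and 1.28. The summed neutrophil markers went from 11.3 and 19.7 to 252 and 256 CPM, and the part of these cells and genes in the iron gene counts was not tested. Slc39a14, from the list of iron uptake genes, was called neither with CCl4 at day 0 nor with ethanol in CCl4 animals by edgeR. With each library left out in turn, its log2 change was -1.15 to -0.95 in the former and 0.74 to 1.01 in the latter.

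The genes whose log2 levels followed Hamp most closely over the 15 libraries, among 9799 genes with a mean of at least 5 CPM, were Ugt3a1 with a Pearson correlation of 0.91, Aasdh with 0.91, Ces3a with 0.91, Sult2a8 with 0.89 and Cyp27a1 with 0.88. All 5 had the 3 CCl4 ethanol libraries below the other 12, as Hamp did, for example Ces3a at 209 to 486 CPM against 813 to 1914 CPM. They were picked for likeness to Hamp over these same libraries, so a shared pattern was largely set by the choice. Unnamed transcripts were left out of the ranking. For Tfrc the closest genes were Mmp19 at 0.92, Mcfd2 at 0.92, Klhl25 at 0.90, Mesdc2 at 0.89 and Erp29 at 0.88. For Id1 they were Klhdc8b at 0.89, Klhl13 at 0.88, Acsl5 at 0.87, Pla2r1 at 0.86 and Pcdh17 at 0.86. The points share libraries, groups and depth, so these values describe the 15 libraries.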

How the data were processed

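The authors deposited raw read counts by gene symbol, with a table for each library. Per the submitters' processing notes, reads were aligned with GSNAP to mm10 and DESeq2 1.12.3 was used; for the counter, annotation and strand, the sources used here give nothing. The 5 entries of each table for reads given to no gene (47.0% to 58.6% of listed reads, including 18.1% to 28.8% aligned to several places) were left out. The labels' days were used where table names give 28D. Counts were fitted with edgeR 4.0.16 in R 4.3.3 (TMM, filterByExpr, 7 group means, 8 residual degrees of freedom, common dispersion 0.0409), with Benjamini-Hochberg adjustment over 14778 genes; the procedure was tested on simulated data. Coordinates and hairpins came from GENCODE M21, promoters from RefSeq. Libraries of a group differed beyond counting error (chi-square per degree of freedom 3.93 to 78.4). The 10 genes and all lists were chosen with earlier results of these data known. Beside the 10, the text names 13 fixed genes and, for each comparison, at most 4 called genes of the iron lists with the smallest adjusted p and a mean of at least 5 CPM; Smad9 was named after its values were seen. Alternatives were RLE scaling, other filters, DESeq2 1.42.0, limma-voom (limma 3.58.1), other controls, and each library left out.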

Additional observations from a re-analysis of the deposited data

Results flagged for a closer look

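Several genes moved in opposite directions in groups that can be set side by side, with no overlap between libraries in either. Groups without overlap are common over all genes: 59.6% of the 14778 tested for CCl4 at day 0, 42.8% for CCl4 on chow and 36.3% for CCl4 with ethanol in both arms, 32.1% for ethanol in OO and 26.6% in CCl4 animals, and 50.1% in OO and 60.6% in CCl4 animals from day 0 on chow. For Trf the log2 change with ethanol was -0.36 in OO and 0.43 in CCl4 animals, and the interaction did not pass (edgeR adjusted p = 0.382). Without library 12 the change in OO animals was -0.077. Its change with CCl4 was -0.43 at day 0 and 0.96 under ethanol. For Hfe the change with CCl4 was 0.12 at day 0 and -0.40 under ethanol. For Tfrc it was -0.63 at day 0 and 0.42 under chow, or 0.43 under chow without library 12. The change from day 0 on chow was 1.79 in OO and -0.94 in CCl4 animals for Hamp2, and 1.38 and -0.65 for Id1. Without library 12 the OO values were 1.44 for Hamp2 and 1.75 for Id1, and without library 5 they were 2.05 and 0.80. Apart from the Trf interaction, these differences were not tested.

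The OO ethanol library of day 23, which enters no comparison, lay above the highest of 4 OO libraries without ethanol for 5 genes. Fth1 held 780 CPM against at most 365, Tfr2 713 against 592, Slc40a1 280 against 237, Hfe 65.5 against 59.4 and Bmp6 4.94 against 4.15 CPM. It lay below the lowest of the 4 for Hamp (141 against 206 CPM), Hamp2 (0.792 against 1.74 CPM) and Trf (18996 against 21304 CPM). Over all 14778 genes tested, 28.5% lay above the highest and 25.5% below the lowest of the 4. It is 1 library, and it is one of the pair with raised pancreas markers.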

How the results depend on the processing

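The alternatives were followed for the members' 60 log2 changes of at least 0.3 in size in the main fit, and smaller ones were left out. The same cut was used for the further iron genes. Of 1559 values for these 60 changes, 1476 kept their direction and side of the threshold, 31 lost a call, 45 gained one and 7 changed sign. Only changes called in the main fit could lose a call, and most of the 60 were not called there. The 1476 therefore do not measure how stable the calls were. The 31 losses fell on Hamp2 (11), Hamp (7), Fth1 (6), Id1 (4) and Hfe (3). The cause of these shifts was not tested. A count of members can stay the same while the called gene changes, as from Hamp to Tfrc against OO chow on the compared libraries only. CCl4 with ethanol against OO chow gave 2 members with RLE scaling, without a filter, with 1 CPM required in 2 libraries or with OO ethanol of both days merged, 3 with DESeq2, limma-voom or limma-voom with lane as a random block, 0 with library 12 alone as control, and 0 to 3 with each library left out. Ethanol in OO animals gave 0 with library 12 or library 5 alone or without libraries 6 and 12 (chosen after the data were seen in earlier work), 1 on the compared libraries only, and 0 to 3 with a library left out. CCl4 under ethanol gave 7 with the lane block and 2 to 6 with a library left out. CCl4 at day 0 gave 4 on the compared libraries only and 1 to 2 with a library left out, and ethanol in CCl4 animals 0 to 1. CCl4 chow from day 0 gave 1 with DESeq2 or on the compared libraries only, and OO chow from day 0 gave 1 with DESeq2. With library 12 alone as control the log2 change became -0.0304 for Lcn2 with CCl4 under chow, -0.24 for the Id1 interaction and 0.0034 for Id2 in CCl4 ethanol livers against OO chow. With each library left out, changes that turned sign ranged from -0.90 to 1.78 (Hamp2) and -0.77 to 0.15 (Tfrc) for CCl4 under ethanol, -0.038 to 0.62 (Bmp6) and -0.0304 to 1.70 (Lcn2) for CCl4 under chow, -0.20 to 2.48 (Hamp2) and -0.24 to 0.72 (Id1) for the interaction, -0.80 to 0.034 (Hamp) for CCl4 chow from day 0, -2.41 to 0.081 (Lcn2) for OO chow from day 0, and -0.52 to 0.0033 (Id2) against OO chow. Counts over all genes also moved by over 1.5 times. The compared libraries only gave 2240 against 367 for CCl4 at day 0 and 73 against 776 for ethanol in OO animals. DESeq2 gave 125 against 17 for the interaction, 580 against 219 for CCl4 under chow and 343 against 16 for OO chow from day 0. Ethanol in OO animals gave 1691 without library 13, and CCl4 chow from day 0 gave 120 against 1615 without library 4. No paired analysis was possible because the library numbers are not shared between groups. Depth limits Hamp2, Id1 and Bmp6, with at most 153 reads.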
